A study of Mus musculus with 4 samples.

Results

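Transcripts of 10 blood transcription factor genes were compared between mouse hematopoietic stem cells (HSC) and the multipotent progenitors (MPP) that follow them. The genes were Gata1, Gata2 and their cofactor gene Zfpm1, the SCL complex genes Tal1, Lyl1 and Lmo2, the ETS genes Fli1 and Erg, Runx1, and Gfi1b. Every probe set of the array that the platform annotation assigned to exactly 1 of these genes was taken, which gave 19 probe sets for 10 genes, of 18193 genes named in all. Both populations came from C57BL/6 mice and lay in the KSL sort gate of early blood cells, HSC as its CD34-negative and MPP as its CD34-positive fraction. Each group held 2 samples labelled as biological replicates, and RNA equivalent to 3000 sorted cells was amplified in 2 cycles for 1 Mouse Genome 430 2.0 array per sample. The labels used here give no genotype change or treatment, no age or sex, and no number of mice per sample. The values are bulk averages over sorted cells, so fewer cells of a type and less RNA per cell cannot be told apart.

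These factors form the best-known regulatory circuit of blood stem and progenitor cells. GATA factors bind GATA sites in DNA through zinc fingers, and TAL1 (also called SCL) and LYL1 bind E-boxes as partners of E proteins. LMO2, in a complex with LDB1, joins them to GATA factors without binding DNA itself. FLI1 and ERG belong to the ETS family, RUNX1 pairs with CBFB, GFI1B is a repressor, and FOG1, the product of Zfpm1, is a GATA cofactor. Many of these proteins occupy enhancers together in progenitors, and GATA1 and GATA2 can replace each other at shared sites during red cell and megakaryocyte formation.

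RefSeq promoter windows (assembly GRCm38.p6) of 250 bases before a transcript start were at hand for 8 of the genes, 13 windows in all. They were searched on both strands for GATA sites (the letters AGATAA or, ending otherwise, AGATAG, and likewise TGATAA or, ending otherwise, TGATAG), ETS sites (CAGGAAG or, with other first letters, CCGGAAG), E-boxes (CAGATG or, with another centre, CAGCTG) and RUNX sites (TGTGGT or, with another centre, TGCGGT). Matches to GATA sites lay in 3 of the 13 windows (Tal1, Erg and Gfi1b), against 26.5% of 32851 RefSeq windows of that length. ETS matches lay in 4 (Gata1, Lyl1, Erg and Runx1), against 17% of all windows. No window held the E-box or RUNX letters searched, which 25.5% and 18.6% of all windows held. A match describes letters and not a bound site. No searched match overlapped another. The 4 windows shown here are given, 5′ to 3′, with matches in capitals. Those of Gfi1b and of the upstream Tal1 start hold a GATA match. That of the upstream Gata2 start holds none, and that of Lyl1 holds an ETS match. The downstream windows of Tal1 and Gata2, not shown, held no match. Probe sets were not assigned to transcript starts, so the differences below belong to genes and not to these windows. The 4 windows lie at chr2:28621983-28622232 (minus strand), chr4:115056176-115056425, chr6:88193641-88193890 and chr8:84701207-84701456 (plus strand).
Gfi1b: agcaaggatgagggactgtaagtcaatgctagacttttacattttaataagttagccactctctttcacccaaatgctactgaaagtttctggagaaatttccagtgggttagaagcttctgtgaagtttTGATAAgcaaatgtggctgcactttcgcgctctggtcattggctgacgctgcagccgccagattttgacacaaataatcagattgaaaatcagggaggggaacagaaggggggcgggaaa
Tal1: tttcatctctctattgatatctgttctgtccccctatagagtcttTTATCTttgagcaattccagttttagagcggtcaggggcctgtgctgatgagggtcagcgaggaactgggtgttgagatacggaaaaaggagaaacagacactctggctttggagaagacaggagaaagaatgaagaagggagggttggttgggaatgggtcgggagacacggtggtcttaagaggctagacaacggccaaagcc
Gata2: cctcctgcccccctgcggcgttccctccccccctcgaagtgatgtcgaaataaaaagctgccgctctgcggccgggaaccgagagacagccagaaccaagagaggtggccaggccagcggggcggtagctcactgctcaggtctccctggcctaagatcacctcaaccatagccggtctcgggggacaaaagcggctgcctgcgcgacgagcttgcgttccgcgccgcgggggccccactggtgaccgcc
Lyl1: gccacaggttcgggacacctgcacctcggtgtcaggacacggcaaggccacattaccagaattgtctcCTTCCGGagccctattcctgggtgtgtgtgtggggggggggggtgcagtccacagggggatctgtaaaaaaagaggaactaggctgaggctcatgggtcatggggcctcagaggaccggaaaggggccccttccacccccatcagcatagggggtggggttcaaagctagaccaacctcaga

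Each probe set gives 1 intensity per array, in arbitrary units and on a linear scale. The array medians were 26.1 and 26.9 for HSC and 22.0 and 21.3 for MPP. A floor was set for each array at the highest of 27 bacterial control probe sets, 13.6 to 16.9 units. Marker genes of stem cells and progenitors separated the groups on RNA level. Of these markers, the labels name only CD34 as parting HSC from MPP in the sort. Cd34, Flt3 and Cd48 were lower in HSC (log2 differences -2.66, -3.53 and -5.46). Slamf1, Procr and Kit were higher (3.29, 2.31 and 0.65), the last without a call in 6 of 12 alternatives. Slamf1 was called on 2 of its 3 tested probe sets. The HSC replicates stood apart on the markers of progenitors. Cd34 read 469 and 235 units on HSC replicates 1 and 2, a gap that 7.79% of tested probe sets reached, and Flt3 read 166 and 69.7, a gap that 4.70% reached. Cd48 read 10.4 and 32.4 units, the first below the floor, so its size is uncertain. HSC replicate 2 stood apart in its 3′ to 5′ actin signal ratio, 9.42 against 4.99 to 5.26 on the other arrays, and less in that of Gapdh, 5.81 against 4.88 to 5.15. Differences are on the log2(intensity + 6.01) scale, HSC minus MPP, from a limma fit over 27022 probe sets, and a call is a Benjamini-Hochberg adjusted p under 0.05 over all of them. Where nothing says that samples came from separate animals, such p-values measure only the spread between these samples. Across all tested probe sets the median difference was 0.11 as deposited, -0.01 after quantile normalization and -0.13 with equal array medians, and small differences are to be read against it.

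The factors were mostly higher in HSC. They were chosen with earlier results of these data known, so the counts below are no independent support. Of the 18 tested member probe sets, 8 were called higher and none lower, against 5.96% called higher and 4.65% called lower among all tested probe sets. At an unadjusted limma p under 0.05, 9 were higher and 0 lower. By the probe set with the highest mean of each gene, 6 of 10 genes rose (Gata2, Gfi1b, Zfpm1, Tal1, Fli1 and Lmo2), against 7.71% of all 12382 genes tested, and none fell, against 5.9%. Gata1, Lyl1, Erg and Runx1 had no call. The remaining probe set, 1 of the 2 of Erg, was left out by the filter on dim probe sets. With no filter, all 19 were tested and 5 were called higher, against 2.04% of all probe sets.

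**Figure D1:**
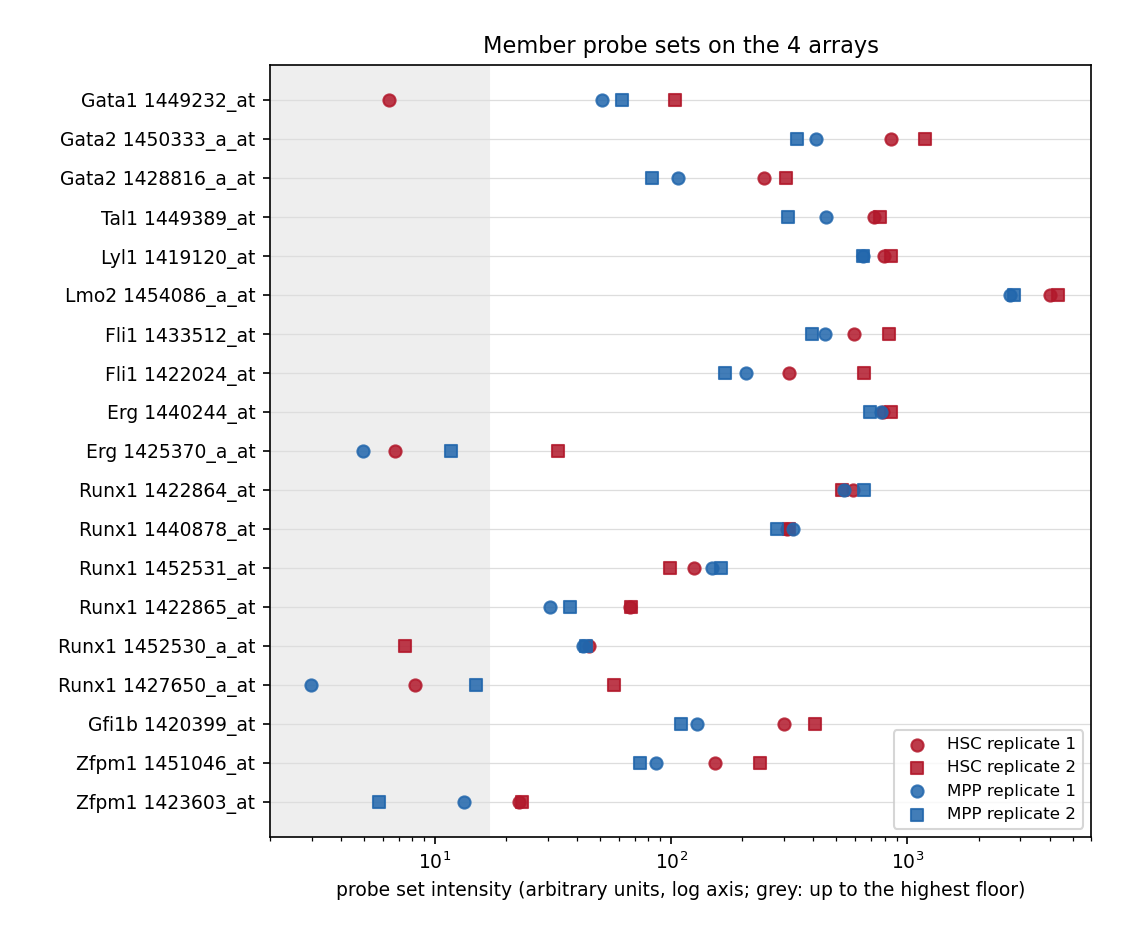
Intensity of each of the 19 member probe sets (rows) on the 4 arrays, in arbitrary units on a log axis, with red for HSC, blue for MPP, circles and squares for replicates 1 and 2, and grey for levels up to 16.9 units, the highest floor. Both HSC arrays lie above both MPP arrays for 12 probe sets, and Gata1 on HSC replicate 1 lies in the grey range at 6.39 units.

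Both HSC arrays lay above both MPP arrays on 12 of the 19 probe sets, against 29.4% of all probe sets. Only 1 lay below them, against 17.8%, and on 6 the groups overlapped. On all 8 probe sets called, HSC replicate 2, the array with the high actin ratio, read above HSC replicate 1. The share of all called probe sets with that order was not computed. Most genes called higher in the erythroid and megakaryocyte lists below read in that order too, but Car2, Gp9, Pf4 and Gng11 did not. On HSC replicates 1 and 2, Vwf read 920 and 1183 units. Pf4, a megakaryocyte gene named after its values were seen, read 497 and 382. The part of the actin ratio in the differences was not tested. Without HSC replicate 2, 5 probe sets were called higher, and without MPP replicate 2, 3 were.

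Gata2, a GATA factor needed to maintain stem cells, rose on both of its probe sets. Probe set 1450333_a_at read 849 and 1188 units in HSC and 409.9 and 340.2 in MPP. The lowest HSC value was thus well above the highest MPP value. The means were 1018 ± 239.7 and 375 ± 49.3 (SD, n = 2 each), a 2.66-fold rise (log2 difference 1.41, SE 0.20, limma adjusted p = 0.00151). Probe set 1428816_a_at read 248 and 307 units in HSC and 107 and 82.5 in MPP, again without overlap. Its rise was 2.82-fold (log2 difference 1.49, SE 0.23, limma adjusted p = 0.00230). The first lost its call without the trend in the prior variance (adjusted p = 0.0567), and the second kept it in all 12 alternatives that measured it.

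Gata1, the GATA factor of red cell, megakaryocyte, mast cell and eosinophil development, gave opposite readings on the 2 HSC arrays. Its 1 probe set gave 6.39 units for HSC replicate 1, under that array's floor of 16.9, and 104 for HSC replicate 2. The MPP arrays read 51.1 and 61.8 units, between them. The log2 difference was -0.75 with an SE of 0.76 and no call (limma adjusted p = 0.594). Only 7 of the 27022 tested probe sets, 0.0259%, had an HSC replicate gap as wide. Without HSC replicate 1 the difference was 0.82 (adjusted p = 0.0985), without a call. Without HSC replicate 2 it was called lower (adjusted p = 0.00304), so its sign rests on which HSC array is kept. The array kept there read below its floor, and MPP was at least 3.33-fold above that floor. In all fits that leave out an array, the lone array of a group is assumed to vary like the other group. Mcpt8, a basophil protease gene named here after its values were seen, read 4.96 and 97.6 units on HSC replicates 1 and 2. It read 28.5 and 42.7 units on the MPP arrays, and 5 probe sets reached its HSC gap. Other tested genes of the mast cell, basophil and eosinophil list did not part the HSC arrays so widely. On HSC replicates 1 and 2 Cpa3 read 84.5 and 90.1 units, Ms4a2 20.2 and 29.1, and Hdc 17.8 and 9.29. Klf1, an erythroid factor gene that GATA1 activates, also named after its values were seen, read 133 and 206 units in HSC. It read 46.2 and 35.5 units in MPP and rose on the test (log2 difference 1.88, limma adjusted p = 0.00228). Of the 17 tested genes of the erythroid list below, 6 including Klf1 were called higher and 11 had no call. Epor, the erythropoietin receptor gene of that list, read 57.1 and 28.8 units in HSC and 19.8 and 28.6 in MPP (limma adjusted p = 0.364). The part of GATA1 in these differences was not tested.

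Zfpm1, which encodes the GATA cofactor FOG1, rose on 1 of its 2 probe sets. Probe set 1451046_at read 153 and 237 units in HSC and 86.4 and 73.8 in MPP, without overlap. The change was 2.29-fold (log2 difference 1.19, SE 0.26, limma adjusted p = 0.0154). Its call ended without HSC replicate 2 (0.89, adjusted p = 0.0578), without MPP replicate 2 (1.09, adjusted p = 0.0718) and without the trend (adjusted p = 0.0941). Probe set 1423603_at was dim, with 22.6 and 23.4 units in HSC and 13.3 and 5.79 in MPP, both of the latter below the floor. It was at least 1.61-fold higher in HSC, without a call (limma adjusted p = 0.270). This bound is the ratio of mean log2 values with MPP set to the floor.

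**Figure D2:**
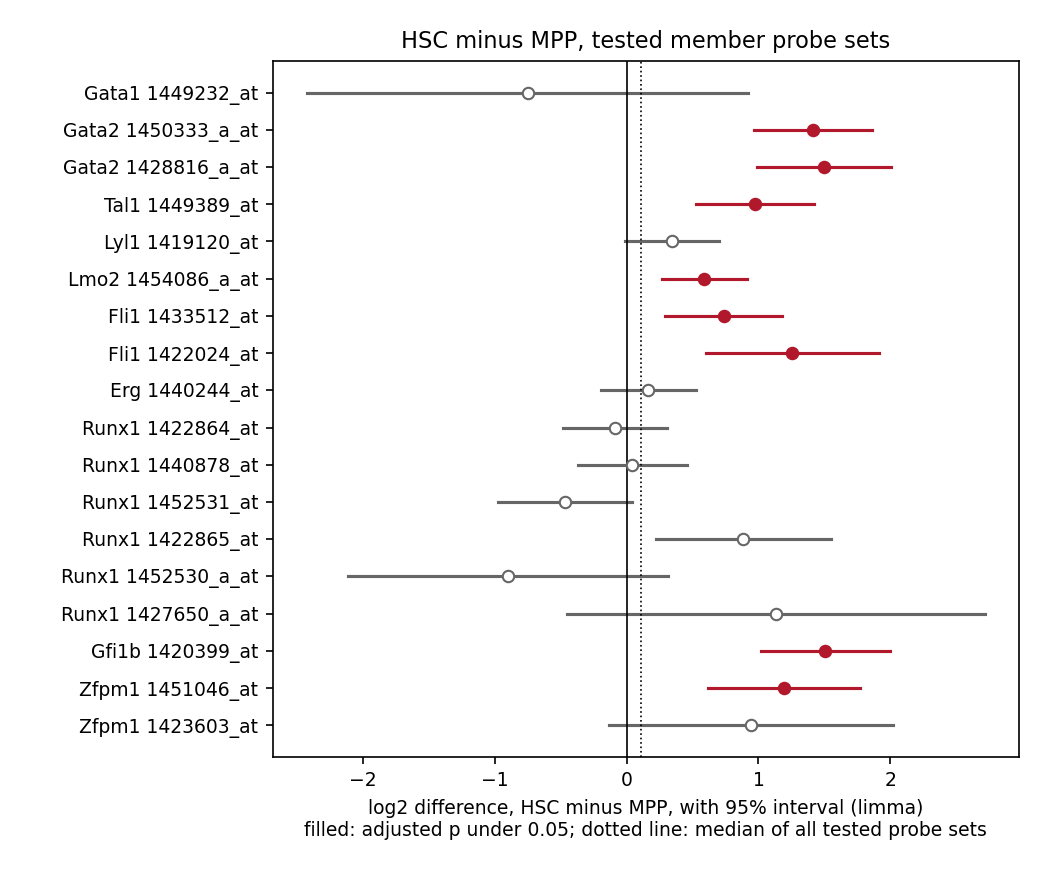
Log2 difference, HSC minus MPP, of the 18 tested member probe sets with 95% intervals from limma, filled where adjusted p was under 0.05. The 8 filled points lie between 0.59 (Lmo2) and 1.51 (Gfi1b), right of the dotted median of all probe sets at 0.11, and the intervals of Gata1 and of 2 dim Runx1 probe sets are the widest.

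In the SCL complex, Tal1 and Lmo2 rose and Lyl1 was not called. Tal1, the basic helix-loop-helix factor that gives the complex its name, read 721 and 762 units in HSC and 452 and 311 in MPP. The HSC arrays lay close together and above both MPP arrays, which lay further apart. The change was 1.96-fold (log2 difference 0.97, SE 0.20, limma adjusted p = 0.0120). It was not called without MPP replicate 2 (0.71, adjusted p = 0.150) or without the trend (adjusted p = 0.121).

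Lyl1, the close relative of Tal1 that can stand in for it in adult stem cells, read 798 and 849 units in HSC and 646 and 649 in MPP. Both HSC values were higher, but the difference of 0.34 (SE 0.16, limma adjusted p = 0.219, 95% interval -0.01 to 0.70) was not called in any alternative. Lmo2, the bridging protein of the complex, read 4016 and 4347 units in HSC and 2727 and 2820.1 in MPP. Its groups did not overlap, and its rise was 1.51-fold (log2 difference 0.59, SE 0.14, limma adjusted p = 0.0257), the smallest of the 8 calls. It had no call with equal array medians (0.36, adjusted p = 0.121), with no filter (adjusted p = 0.109), without the trend, with MPP replicate 1 left out (0.57, adjusted p = 0.271) or MPP replicate 2 left out (0.61, adjusted p = 0.230).

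Of the ETS factors, Fli1 rose and Erg did not pass the test. Fli1, a factor of stem cells and megakaryocytes, read 594 and 833 units in HSC and 446 and 396 in MPP on probe set 1433512_at (log2 difference 0.73, SE 0.20, limma adjusted p = 0.0399). Probe set 1422024_at read 316 and 655 units in HSC and 207 and 169 in MPP (log2 difference 1.26, SE 0.30, limma adjusted p = 0.0220). On both, HSC lay above MPP, and HSC replicate 2 was the highest array. Without HSC replicate 2 the differences were 0.49 and 0.74 with no call (adjusted p = 0.123 and 0.0563), the second moving by over 1.5 times. Leaving out MPP replicate 2 also ended both calls (0.65 and 1.11, adjusted p = 0.236 and 0.0717), as did the fit with no filter (adjusted p = 0.0905 and 0.0798) and the fit without the trend. The first was also not called without MPP replicate 1 (0.82, adjusted p = 0.107) or with equal array medians (0.50, adjusted p = 0.128).

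Erg, the ETS factor that sustains stem cell self-renewal, read 787 and 853 units in HSC and 773 and 693 in MPP on probe set 1440244_at. The lowest HSC and highest MPP values nearly met. The difference was 0.16 (SE 0.16, limma adjusted p = 0.592, 95% interval -0.20 to 0.52), and it was -0.07 with equal array medians. Probe set 1425370_a_at, the one not tested, read 6.77 and 33.3 units in HSC and 4.93 and 11.7 in MPP, and only HSC replicate 2 was above the floor.

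Runx1, a factor needed for blood stem cells to arise in the embryo, was read by 6 probe sets, and none was called. Probe set 1422864_at read 588 and 528 units in HSC and 539 and 652 in MPP, overlapping, with a difference of -0.09 (SE 0.18, limma adjusted p = 0.808, 95% interval -0.48 to 0.30). Probe set 1440878_at read 308 and 315 units in HSC and 326 and 280.1 in MPP, with a difference of 0.04 (SE 0.19, limma adjusted p = 0.921, 95% interval -0.37 to 0.45). These readings gave group means within the spread of their arrays.

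The other Runx1 probe sets read lower intensities, and their values did not all run the same way. On 1452531_at HSC lay below MPP, with 125 and 98.6 against 149 and 162 units (log2 difference -0.47, limma adjusted p = 0.245). On 1422865_at HSC lay above MPP, with 67.0 and 67.8 against 30.6 and 37.1 units (log2 difference 0.89, limma adjusted p = 0.0901). On 1452530_a_at HSC replicate 1 read 44.7 units like the MPP arrays (42.2 and 43.4), and HSC replicate 2 read 7.45, below the floor. On 1427650_a_at HSC replicate 2 read 57.2 units, HSC replicate 1 read 8.25, and the MPP arrays read 2.97 and 14.9. These last 2 probe sets thus parted the HSC arrays in opposite directions, and without HSC replicate 1 they were called lower (adjusted p = 0.0148) and higher (adjusted p = 0.0315). The HSC array kept was below the floor on 1452530_a_at, which put MPP at least 2.57-fold above that floor. On 1427650_a_at only 1 MPP array was above the floor, so no size is given.

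**Figure D3:**
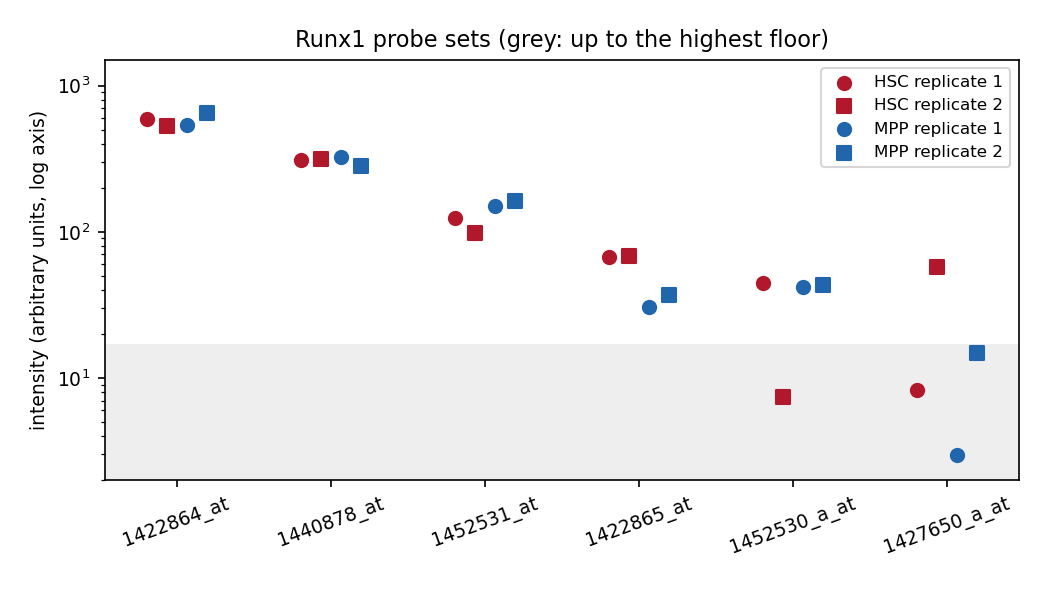
Intensity of the 6 Runx1 probe sets on the 4 arrays (red HSC, blue MPP), in arbitrary units on a log axis, with grey for levels up to 16.9 units. The 2 on the left overlap between groups, 1452531_at is lower and 1422865_at higher on both HSC arrays, and the 2 on the right split the HSC replicates in opposite directions.

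Probe sets of 1 gene were compared through the difference between their HSC to MPP differences. Of 18 pairs within Gata2, Fli1, Zfpm1 and Runx1, none was called in limma. None of 16531 such pairs of all genes was called either, a background of 0%. A test that called no pair of any gene cannot show that the probe sets of a gene agree. At an unadjusted limma p under 0.05, 4 of the 18 member pairs and 9.26% of all pairs passed. All 4 were Runx1 pairs that included 1422865_at. The one with the lowest p set it against 1452531_at (-1.35, 95% interval -2.09 to -0.62, limma adjusted p = 0.353). The Gata2 probe sets differed by -0.08 (95% interval -0.79 to 0.63) and the Fli1 probe sets by -0.52 (95% interval -1.32 to 0.28).

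Gfi1b, a zinc finger repressor needed for red cell and platelet formation and a brake on stem cell cycling, had the largest difference among the called probe sets. It read 299.9 and 405 units in HSC and 129 and 109.5 in MPP, so that every HSC value was more than 2 times any MPP value. The means were 352 ± 74.3 and 119 ± 13.5 (SD, n = 2 each), a 2.84-fold rise (log2 difference 1.51, SE 0.22, limma adjusted p = 0.00179). It was called in all 13 alternatives, with differences from 1.27 to 1.72.

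**Figure D4:**
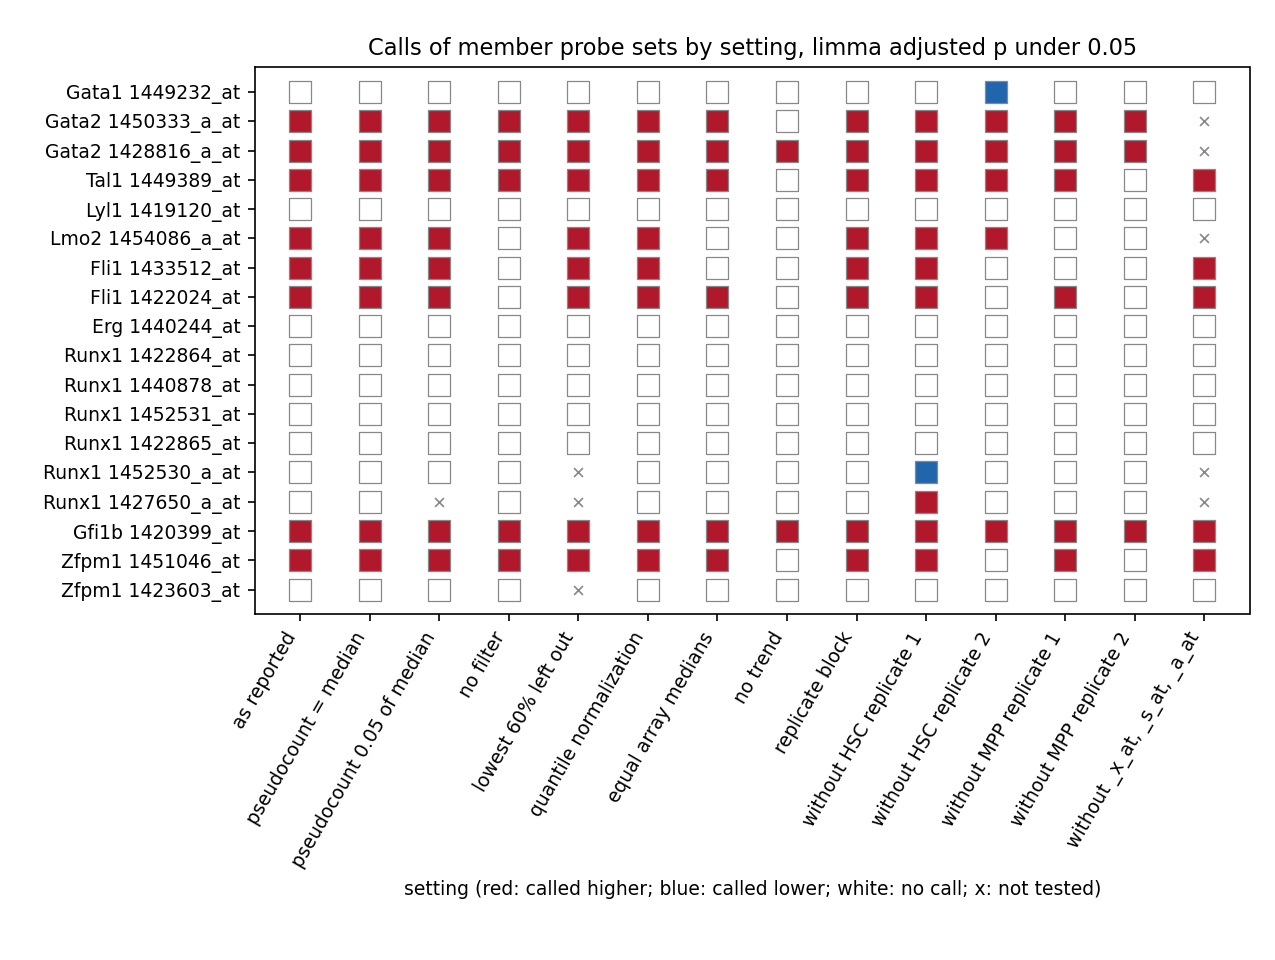
Calls of the 18 tested member probe sets (rows) as reported and under 13 alternatives (columns), red for higher in HSC, blue for lower, white for no call and a cross where the probe set was not tested. Gfi1b is red throughout, the Gata2 rows are red in all but 1 cell that was tested, and the 2 blue cells are Gata1 without HSC replicate 2 and a Runx1 probe set without HSC replicate 1.

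Of 20 complex partners and cofactors of these factors, all tested, 1 fell and none rose, near or under the 5.9% and 7.71% of all genes tested that fell and rose. At an unadjusted limma p under 0.05, 3 were lower and 1 higher, and the median difference was 0.07 against 0.10 over all genes tested. The one that fell was Cbfb, the partner subunit of RUNX proteins, with 1265 and 872 units in HSC and 2018 and 1968 in MPP (log2 difference -0.92, SE 0.19, limma adjusted p = 0.0111). With either MPP array left out, Cbfb was not called (adjusted p = 0.0677 and 0.0580). Of 4 genes for Id proteins, which sequester the E protein partners of TAL1, 2 were tested and 1 rose. That was Id2, with 76.7 and 87.9 units in HSC and 29.6 and 34.4 in MPP (log2 difference 1.22, limma adjusted p = 0.0236), and no call with HSC replicate 2, MPP replicate 1 or MPP replicate 2 left out (adjusted p = 0.0675, 0.106 and 0.0630). The other tested probe set of Id2 was not called. Id3 and Id4 were at or under the floor on all arrays.

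Relatives of the members moved in both directions. Of 11 other genes of the GATA, RUNX, GFI, FOG, TAL and LMO families, 7 were tested. Of these, 1 rose and 2 fell, against 7.71% and 5.9% of all genes tested, with a median of 0.07. Gata3, the GATA factor of T cells that stem cells also express, read 66.1 and 66.4 units in HSC and 23.4 and 11.9 in MPP, 1 of the latter below the floor (log2 difference 1.66, limma adjusted p = 0.0163). Runx3 fell from 179.5 and 183 units in MPP to 34.8 and 44.5 in HSC (log2 difference -2.04, limma adjusted p = 5.95e-04) and was called in all 13 alternatives. Gfi1, the relative of Gfi1b that promotes granulocyte formation, read 85.6 and 53.4 units in HSC and 159 and 138 in MPP (log2 difference -1.06, limma adjusted p = 0.0321). Within 1 family, then, Gfi1b was higher and Gfi1 lower in HSC, and Runx3 was lower while Runx1 had no call. Gata3 was not called once MPP replicate 2 was left out (1.30, adjusted p = 0.0883). Gfi1 lost it with HSC replicate 2, MPP replicate 1 or MPP replicate 2 left out (-0.75, -0.96 and -1.16, adjusted p = 0.0881, 0.164 and 0.0823).

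Of 24 other ETS family genes, 17 were tested, 2 rose and none fell, against 7.71% and 5.9% of all genes tested, with a median of 0.16. At an unadjusted limma p under 0.05, 3 were higher and 1 lower. Etv5 read 99.1 and 158 units in HSC and 38.6 on both MPP arrays (log2 difference 1.56, limma adjusted p = 0.00712). Ets2 read 179 and 227 units in HSC and 110.4 and 109.8 in MPP (log2 difference 0.84, limma adjusted p = 0.0368). Ets2 lost its call with HSC replicate 2, MPP replicate 1 or MPP replicate 2 left out (adjusted p = 0.117, 0.146 and 0.158).

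**Figure D5:**
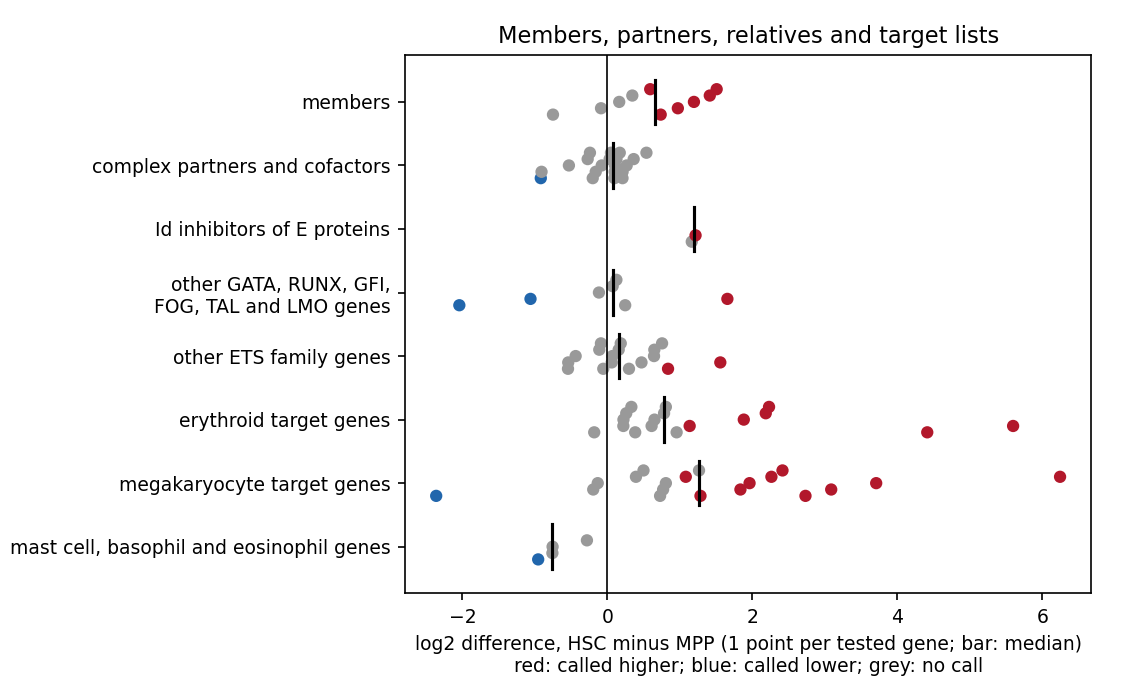
Log2 difference, HSC minus MPP, of each tested gene in the member group and in 7 related lists (1 point per gene, bar at the median), red for called higher, blue for called lower and grey for no call. The medians are 0.66 for the members, 0.07 for their partners, 0.78 for erythroid and 1.26 for megakaryocyte genes.

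Genes of the lineages that GATA1, TAL1, FLI1 and GFI1B serve were higher in HSC in part. The lists were chosen with earlier results of these data known, so their counts are no independent support. Of 23 erythroid genes, 17 were tested, 6 rose and none fell, against 7.71% and 5.9% of all genes tested. At an unadjusted limma p under 0.05, 7 were higher and 0 lower, and the median was 0.78. Car1, a red cell carbonic anhydrase, read 672 and 1215 units in HSC and 17.7 and 8.87 in MPP, 1 of the latter below the floor (log2 difference 5.60, limma adjusted p = 6.03e-06). Ermap, a red cell membrane protein gene, read 125.5 and 202 units in HSC and was below the floor in MPP, at least 11.2-fold higher. Tspan33, a tetraspanin of red cell precursors, read 146 and 148 units in HSC and 30.5 and 23.1 in MPP (log2 difference 2.23, limma adjusted p = 5.95e-04). It was called on 2 of its 4 tested probe sets. Alas2, the heme enzyme of maturing red cells, and Slc4a1, the red cell anion exchanger, were at or under the floor on all 4 arrays. The summed intensity of the 21 erythroid genes named on the array was 7151 and 7861 units in HSC and 3587 and 3485 in MPP. Car2, a carbonic anhydrase gene and the brightest of the list, made up 53.7% to 60.6% of each sum, and without it the sums were 2818 and 3637 units in HSC and 1640 and 1541 in MPP.

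Of 22 megakaryocyte genes, 19 were tested, 10 rose and 1 fell, against 7.71% and 5.9% of all genes tested, with a median of 1.26. Vwf, von Willebrand factor, read 920.2 and 1183 units in HSC and was below the floor in MPP, at least 73.2-fold higher. Mmrn1, multimerin, read 1552 and 1677 units in HSC and 238 and 237 in MPP (log2 difference 2.73, limma adjusted p = 7.71e-06). Cavin2 read 536 and 571 units in HSC and 42.1 and 32.0 in MPP (log2 difference 3.71, limma adjusted p = 7.71e-06). Plek, a platelet kinase substrate also made by leukocytes, went the other way, with 119 and 133 units in HSC and 548 and 826 in MPP (log2 difference -2.36, limma adjusted p = 1.30e-04). Of 12 mast cell, basophil and eosinophil genes, 4 were tested, none rose (none at an unadjusted limma p under 0.05 either) and 1 fell. That was Cpa3, a mast cell protease gene, with 84.5 and 90.1 units in HSC and 169 and 181 in MPP (log2 difference -0.96, limma adjusted p = 0.0201). With either MPP array left out, Cpa3 was not called (adjusted p = 0.0927 and 0.144).

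Markers of other cell types that make some of these factors were read beside them. Of 11 endothelial genes, 9 were tested, 4 rose (Kdr, Robo4, Tie1 and Sox18) and 1 fell, against 7.71% and 5.9% of all genes tested. The gene that fell was Egfl7, called on 1 of its 4 tested probe sets. The summed intensity of the 11 genes was 763 and 554 units in HSC and 527 and 514 in MPP. Without Egfl7, the brightest, the sums were 572 and 479 units in HSC and 224 and 213 in MPP. Cdh5, the cadherin that defines endothelium, was at or under the floor on all 4 arrays. Of 9 macrophage genes, 6 were tested and Csf1r fell, called on 2 of its 3 tested probe sets. The sums were 276 and 212 units in HSC and 497 and 742 in MPP, with Marco, C1qa and C1qc at or under the floor throughout. Without Csf1r, the brightest, the sums were 222 and 182 units in HSC and 215 and 189 in MPP. None of the 4 B lymphocyte, 1 T and NK lymphocyte and 2 mature neutrophil genes tested was called in limma, and 1 passed at an unadjusted p under 0.05. Their sums were 202 and 266 units in HSC against 194 and 207 in MPP, 51.9 and 75.5 against 31.3 and 51.4, and 111 and 56.6 against 86.1 and 85.1. The part of these cell types in the member differences was not tested.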

How the data were processed

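The values were the deposited intensity of each probe set, on a linear scale, and the sources used here do not name the software that made them. Trimmed by 2% at either end, every array's mean was 100.0, so the authors had scaled each array, as the deposited values show. Of 45101 probe sets, 64 controls were left out. Of the rest, 34945 had 1 gene symbol, 932 several and 9160 none in the platform annotation, and 34741 matched a RefSeq table of GRCm38.p6 that updated symbols. Intensities became log2(intensity + 6.01), the pseudocount being 0.25 of their median. The 40% of probe sets with the lowest mean were then dropped, and 27022 entered the fit.

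HSC and MPP were compared with limma 3.58.1 (R 4.3.3), lmFit and eBayes with a trend, 2-sided, with 2 residual and 8.48 prior degrees of freedom, most of the variance estimate thus coming from other probe sets. For counts of genes, the brightest tested probe set stood for its gene. Bounds set the dim group to the floor. The scripts were tested on simulated data. There, 10 of 100 changes of 1 log2 unit were called, and 69 of 100 changes of 2 log2 units. In the same run 8 unchanged probe sets were called. Far fewer probe sets changed there than were called here, so these shares do not carry over exactly. A missing call is thus not a sign of equal levels. The alternatives were 2 pseudocounts, 2 filters, quantile normalization, equal array medians, no trend, the replicate number as a block, each replicate left out, no probe sets ending in _x_at, _s_at or _a_at, and the mean over probe sets of a gene. A trend on pair level was added after the data were seen. Members and lists were chosen with earlier results of these data known. Named were all members, the markers of stem cells and progenitors and, of each list, the 3 calls with the smallest p per direction. For some lists the brightest gene, the genes under the floor or all called genes were also named. Further genes, such as Pf4, Gp9, Gng11, Mcpt8, Ms4a2, Hdc, Klf1 and Epor, were named after their values were seen. Listed symbols that the annotation did not pair with a probe set are not used here. The number of arrays limits the precision of every value.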

Additional observations from a re-analysis of the deposited data

How the results depend on the processing

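With 2 arrays per group, single calls near the threshold move with 1 array, and signals near the floor have no reliable order. Over the alternatives, member results kept direction and side of the threshold 204 times, lost a call 21 times, gained one 3 times and changed sign 7 times. Other named genes kept both 232 times and lost a call 34 times.

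The sign changed, always without a call as reported, for Erg 1440244_at with equal array medians (-0.071), for Runx1 1440878_at with equal array medians (-0.19) and for Runx1 by the mean over its probe sets (0.10). With a replicate left out, Gata1 ranged from -2.33 to 0.82, and the Runx1 probe sets from -0.23 to 0.048 (1422864_at), -0.067 to 0.15 (1440878_at) and -1.86 to 0.056 (1452530_a_at). The lowest values of Gata1 and of 1452530_a_at rest on 1 HSC array below the floor, and their sizes are not reliable.

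Member probe sets called higher numbered 5 with no filter, 2 with no trend, 5 without probe sets ending in _x_at, _s_at or _a_at, and 3 to 9 leaving out each replicate in turn, with 0 to 1 called lower. All probe sets called higher and lower numbered 917 and 780 with no filter, 1020 and 2379 with equal medians, 633 and 374 with no trend, and 1026 to 2011 and 568 to 1908 with a replicate left out. The replicate block gave 2525 higher and 1833 lower, with 8 member probe sets higher as before. The labels tie same-numbered samples only by number, and their deviations had a correlation of 0.03. Whether they shared a source is not known from this. The block changed no call of a named probe set, and the counts it changed are given here.

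Partner genes called lower numbered 2 with equal medians, 0 with no trend, 3 with the replicate block, 0 without the named probe set endings and 0 to 2 with a replicate left out, when 0 to 1 were higher. Id genes called higher numbered 0 with no filter, equal medians, no trend or without those endings, 2 with the replicate block, and 0 to 1 with a replicate left out. Other GATA, RUNX, GFI, FOG, TAL and LMO family genes called higher numbered 0 with no filter, the lowest 60% left out or no trend, and 0 to 1 with a replicate left out. Those called lower numbered 1 with no filter or no trend and 1 to 2 with a replicate left out. Other ETS genes called higher numbered 1 with no filter, quantile normalization or equal medians, 0 with no trend, and 1 to 2 with a replicate left out. Those called lower numbered 1 with equal medians or the replicate block, and 0 to 1 with a replicate left out. Megakaryocyte genes called higher numbered 5 with no trend and 7 to 10 with a replicate left out. Mast cell, basophil and eosinophil genes called lower numbered 0 with no trend and 0 to 2 with a replicate left out, when 0 to 1 were higher. Erythroid counts stayed between 4 and 6, and no probe set pair of a member was called under any alternative, including the trend on pair level (lowest adjusted p = 0.304). The cause of these shifts was not tested.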
